A study of Mus musculus with 16 samples.

Results

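The major urinary protein (Mup) genes described here were 10 of the 57010 genes in the deposited liver table, taken as the rows named Mup1, Mup2, Mup3, Mup7, Mup10, Mup11, Mup12, Mup17, Mup20 and Mup21. Liver poly(A) RNA of 16 C57BL/6J wild-type male mice was sequenced to ask how selenium (Se) bears on cadmium (Cd) injury of the liver. The mice were 8 to 12 weeks old at the start of treatment, and all 16 had the same strain and genotype. Livers were taken at the end of treatment, which for the mice fed Se was after 3 months of diet. The age of each group at that point is not stated in the sources used here. The 4 groups of 4 mice were control (mice 27 to 30), Cd (mice 1, 2, 5 and 6), Se (mice 39, 40, 41 and 44) and Cd+Se (mice 13 to 16). Cd mice received CdCl2 at 1.25 mg/kg into the peritoneum on each of 7 days, Se mice ate selenomethionine (SeMet) at 2 ppm for 3 months, and Cd+Se mice received both. What control and Se mice were injected with is not stated in the labels. Levels are transcript abundances scaled to a common total (TPM), which are also divided by transcript length, so the sequencing depth is unknown and no counting error can be given.

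MUPs are lipocalins, small secreted proteins with a pocket for fatty, volatile ligands. Hepatocytes of male mice secrete them in large amounts, and they pass through the kidney into the urine, where they carry pheromones and serve as scent marks. Their transcription in the liver is known to depend on pulsed growth hormone, acting through its receptor Ghr and the transcription factor STAT5B, and on androgen, thyroid hormone and glucocorticoid, so the genes are higher in males than in females.

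The genes lie together on chromosome 4, all on the minus strand, and each of the 10 was found in GENCODE M21 (build GRCm38) by its Ensembl identifier. Mup20 (ENSMUSG00000078672), which encodes darcin, a pheromone of male urine, lies at chr4:62050234-62054158. Mup3 (ENSMUSG00000066154) lies at chr4:62083476-62087342 and Mup21 (ENSMUSG00000066153) at chr4:62147932-62150863. The other 7 lie between position 60066469, the start of Mup7, and position 61595871, the end of Mup17. Coding sequences of these 7 were 98.7% to 99.6% identical to that of Mup1 (Mup1 itself aside), against 90.7% for Mup20, 84.1% for Mup21 and 82.8% for Mup3. The stretch below, coding bases 244 to 303 counted from the start codon, was the 60-base window that varied most among the 10 genes. It is shown because it tells which genes can be told apart. Capitals mark the bases that differ from Mup1.
Mup1: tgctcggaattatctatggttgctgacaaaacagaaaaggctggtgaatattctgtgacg
Mup10: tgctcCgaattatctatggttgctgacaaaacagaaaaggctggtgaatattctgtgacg
Mup20: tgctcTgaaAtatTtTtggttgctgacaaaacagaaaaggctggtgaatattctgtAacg
Mup3: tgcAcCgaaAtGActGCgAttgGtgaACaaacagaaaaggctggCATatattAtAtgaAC
Mup21: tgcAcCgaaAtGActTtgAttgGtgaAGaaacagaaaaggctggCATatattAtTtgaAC

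Mup2, Mup11 and Mup12 had the same 60 bases as Mup1, and Mup7 and Mup17 the same as Mup10, which differs from Mup1 at 1 base. Mup20 differed at 5 bases, Mup21 at 17 and Mup3 at 18. Over whole transcripts, 97.1% of the 100-base windows of Mup3, 95.5% of those of Mup21 and 61.2% of those of Mup20 occurred in no other annotated gene. The share was 40.6% for Mup17, 22.5% for Mup12 and 16.5% for Mup11. It was 14.6% for Mup10, 12.9% for Mup7, 12.8% for Mup1 and 2.66% for Mup2. For these 7 genes, most reads could come from a paralog, and how the authors' counting divided such reads is not given in the sources used here. Values for Mup3, Mup20 and Mup21 are therefore the best resolved, and those for single genes of the other 7 are uncertain. The sum of all 10 is less sensitive to the division of reads among the 10. It still depends on the division with Mup genes outside the 10, such as Mup9, the closest to Mup2 and Mup10, and Mup18, the closest to Mup11 and Mup20.

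All 16 livers had the sex and tissue the labels give. The female transcript Xist was at most 0.06 TPM, the 4 Y-linked genes looked at summed to between 62.1 and 92.1 TPM, and the 7 hepatocyte markers were found at a summed level of 36450 TPM or more. Mt1 and Mt2, the metallothionein genes, which encode metal-binding proteins, were at least 3178 and 2433 TPM in every injected mouse and at most 431 and 306 TPM in every other mouse. A pair of libraries stood apart. Cd mouse 5 had the lowest level of the 16 in 47.5% of the 11766 genes tested. Se mouse 40 had the highest level in 28% of genes and the lowest in 2.03%, and calls are given with and without them where they turn on either. In bulk tissue, fewer cells of a type and less RNA per cell cannot be told apart.

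Together the 10 Mup genes made up 2.95% to 10.03% of each library. In control mice 27, 28, 29 and 30 they summed to 50482, 75533, 56797 and 81366 TPM. In Cd mice 1, 2, 5 and 6 the sums were 59354, 62790, 63397 and 71252 TPM, and in Cd+Se mice 13, 14, 15 and 16 they were 63202, 70992, 54807 and 71217 TPM. In Se mice 39, 40, 41 and 44 they were 100287, 29495, 83078 and 79704 TPM. The control, Cd and Cd+Se groups overlapped, while the Se group held the highest and the lowest liver of the series. As a share of the library, the mean was 6.60% ± 1.47 (SD, n = 4) in control, 6.42% ± 0.503 in Cd, 6.51% ± 0.778 in Cd+Se and 7.31% ± 3.05 in Se mice. Without mouse 40 the Se mean was 8.77% ± 1.10 (SD, n = 3), which leaving out the lowest Se mouse raised by construction. Each of these 3 mice was at 7.97% of the library or more, while 2 of the 12 mice of the other groups, controls 28 and 30, exceeded 7.13%. Control 30, at 81366 TPM, was above Se mouse 44, at 79704 TPM, so the groups still overlapped. On the log2 scale the summed level differed by -0.02 between Cd and control, by 0.01 between Cd+Se and Cd, and by 0.04 between Se and control. Without mouse 40 the last of these was 0.43. After centring each library on the median of the genes tested, the difference between Cd and control was 0.20 and that between Cd+Se and Cd was -0.18, so the sign of both turned on the scaling. Quantile normalization gave -0.12 and 0.14. Over all Mup genes with pseudogenes the same differences were -0.03 and -0.14. These sums carry no test.

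**Figure D1:**
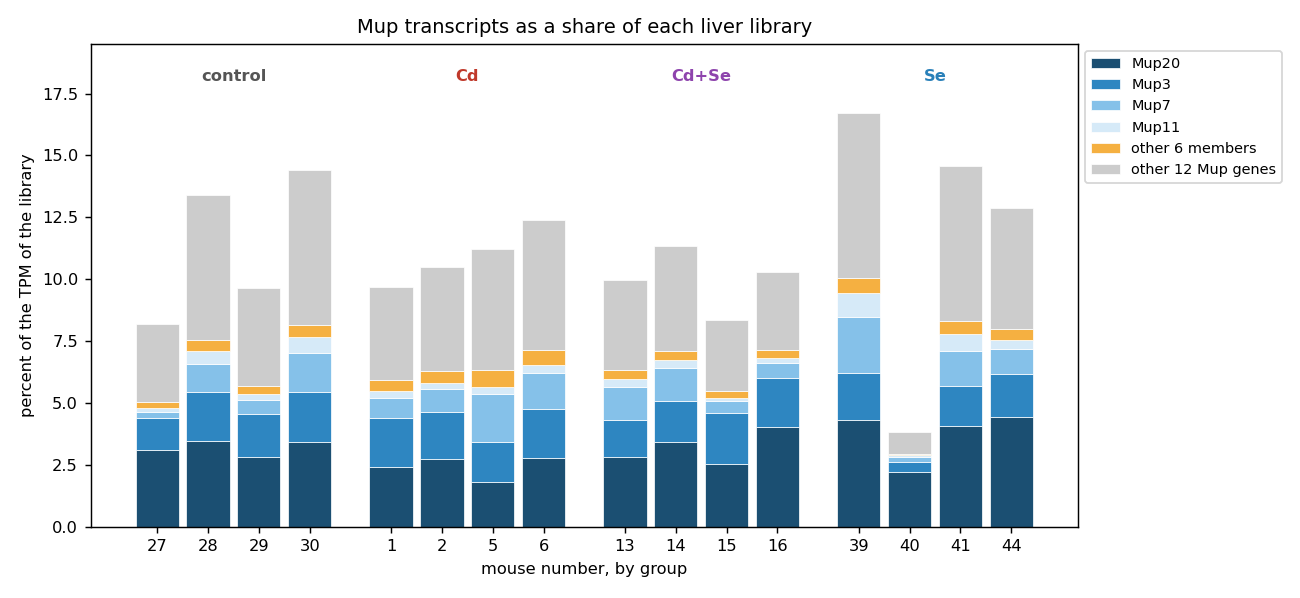
Stacked bars of the percent of each library's TPM (vertical axis) taken by Mup genes in each of the 16 mice (horizontal axis, by group), with the 4 most abundant members, the other 6 members and the other 12 Mup genes in separate colours. The 10 members take 2.95% in Se mouse 40 and 5.05% to 10.03% in the other 15 mice, and Mup20 and Mup3 are the largest parts among the members in most bars.

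Mup20 was the most abundant member in every mouse, and on average it gave 49.6% of the members' sum in control livers. Mup3 followed with 26.8%, Mup7 with 12.4%, Mup11 with 5.69% and Mup10 with 2.52%, and the other 5 gave between 0.205% and 1.06% each. TPM are per length, so levels can be set side by side between genes. Those of the members other than Mup20, Mup3 and Mup21 rest on how shared reads were divided, so their order is uncertain even where it held in every mouse. Mup20 exceeded Mup3 in 16 of 16 mice and Mup7 exceeded Mup11 in 16 of 16. Mup3 was above Mup7 in 14 of 16 mice, and Mup10 was above Mup21 in 15 of 16. Further down the order Mup1 was above Mup17 in 14 of 16 mice, Mup21 above Mup1 in 12, Mup17 above Mup12 in 11 and Mup12 above Mup2 in 12, so the order of the last 3 pairs was not beyond the spread between mice.

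**Figure D2:**
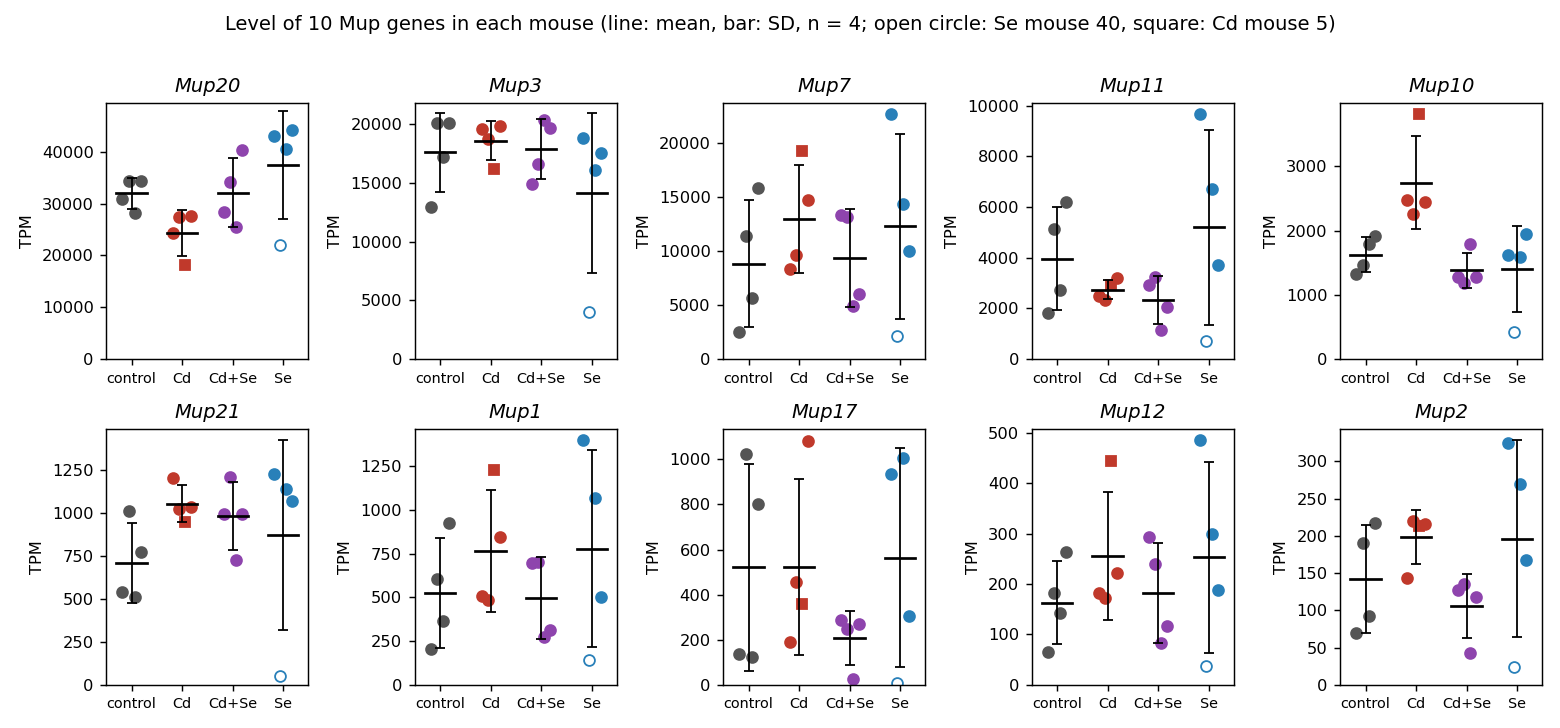
Level in TPM (vertical axis, from 0) of each of the 10 Mup genes in each mouse of the 4 groups, in the order of their control means, with the mean as a line and the SD as a bar (n = 4). The open circle is Se mouse 40, the lowest Se mouse in all 10 panels, and the square is Cd mouse 5, the highest of 16 mice for Mup10 at 3817 TPM and the lowest for Mup20 at 18073 TPM.

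By group, Mup20 averaged 31967 ± 3028 TPM (SD, n = 4 here and below) in control, 24374 ± 4482 TPM in Cd, 32123 ± 6600 TPM in Cd+Se and 37482 ± 10477 TPM in Se mice. Mup3 averaged 17595 ± 3365, 18570 ± 1666, 17878 ± 2553 and 14123 ± 6810 TPM in the same order, and Mup7 averaged 8836 ± 5913, 12980.3 ± 5007, 9365 ± 4511 and 12278 ± 8583 TPM. Mup11 averaged 3962 ± 2039, 2736 ± 385, 2335 ± 935 and 5198 ± 3851 TPM, and Mup10 averaged 1624 ± 276, 2744 ± 722, 1382 ± 271 and 1397 ± 667 TPM. For these 5 genes the spread was widest in the Se group in 4, with Mup10 widest in Cd. Mup21 averaged 706 ± 232, 1051 ± 108, 980 ± 197 and 870 ± 550 TPM, and Mup1 averaged 526 ± 315, 768 ± 349, 496 ± 234 and 780 ± 564 TPM. Mup17 averaged 521 ± 460, 522 ± 390, 208 ± 122 and 564 ± 486 TPM. Mup12 averaged 163 ± 82.3, 255 ± 127, 183 ± 99.3 and 253 ± 189 TPM, and Mup2 averaged 143 ± 72.4, 198 ± 36.4, 106 ± 43.0 and 196 ± 132 TPM. In these lower genes the SD within the Se group was also the largest of the 4 groups.

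Se mouse 40 was below the other 3 Se mice in all 10 members, at a median log2 ratio to their median of -2.91, beside 0.23 for all genes tested. It was the lowest of all 16 mice in 9 of 10 members, Mup20 being the exception, against 2.03% of all genes. Mup21 was 51.2 TPM in this mouse against 1067 to 1225 TPM in the other Se mice, and 513 TPM in the lowest of all other mice. Mup17 was 9.15 TPM against a median of 936 TPM in the other Se mice. Mup3 was 4046 TPM against 16063 to 18800 TPM, or 23.0% of their median. The difference was smallest for Mup20, at 21930 TPM or 50.8% of the median of the other 3, and so made up 74.4% of the members' sum in mouse 40, the highest share of the series. In the wider family mouse 40 was the lowest of 16 in 19 of the 20 Mup genes that averaged 1 TPM or more. Of those outside the members, all but Mup6 had at most 22.2% of their 100-base windows to themselves. Paralogs that share reads are not separate observations, so neither count is one of that many genes.

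Other genes that are known to differ by sex in mouse liver were set beside the Mup genes in this mouse. Of 18 listed male-biased genes, 15 were below the other 3 Se mice in mouse 40. Their median log2 ratio to the median of the other 3 Se mice was -1.18, beside 0.23 for all genes tested. Of the 18, 8 were the lowest of all 16 mice, where 2.03% of all genes were. Hsd3b5, a steroid dehydrogenase of male liver, was 6.78 TPM against 72.8 to 137 TPM in the other Se mice, and Elovl3, a fatty acid elongase, was 1.35 TPM against 8.90 to 15.5 TPM. The 3 that were not below all other Se mice were Ugt2b38 and Susd4, at 103% and 107% of the median of the other Se mice, and Moxd1, which was 0.25 TPM in mouse 40 and in the lowest of the others. Of 17 listed female-biased genes, 3 passed the filter on low values, and 2 of these were highest in mouse 40: Fmo2 at 25.1 TPM and Cyp17a1 at 14.2 TPM. Cux2, a transcription factor of female liver known to repress male-biased genes, had too low a mean to be tested, and was 11.4 TPM in mouse 40 and at most 1.16 TPM in the other 15 mice. The mouse was not female by its sex-linked transcripts, since its Y-linked genes summed to 92.1 TPM, the highest of the series. Ghr was 162 TPM in mouse 40, the lowest of the 16, and Stat5b was 8.44 TPM, within the range of 6.60 to 12.6 TPM of the others. Its 7 hepatocyte markers summed to 110510 TPM, above the 77342 TPM of the next mouse, and its 7 Kupffer cell markers to 195 TPM, also the highest. Albumin (Alb) alone gave 86650 TPM of that hepatocyte sum. The part of these differences in the low Mup levels was not tested.

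**Figure D3:**
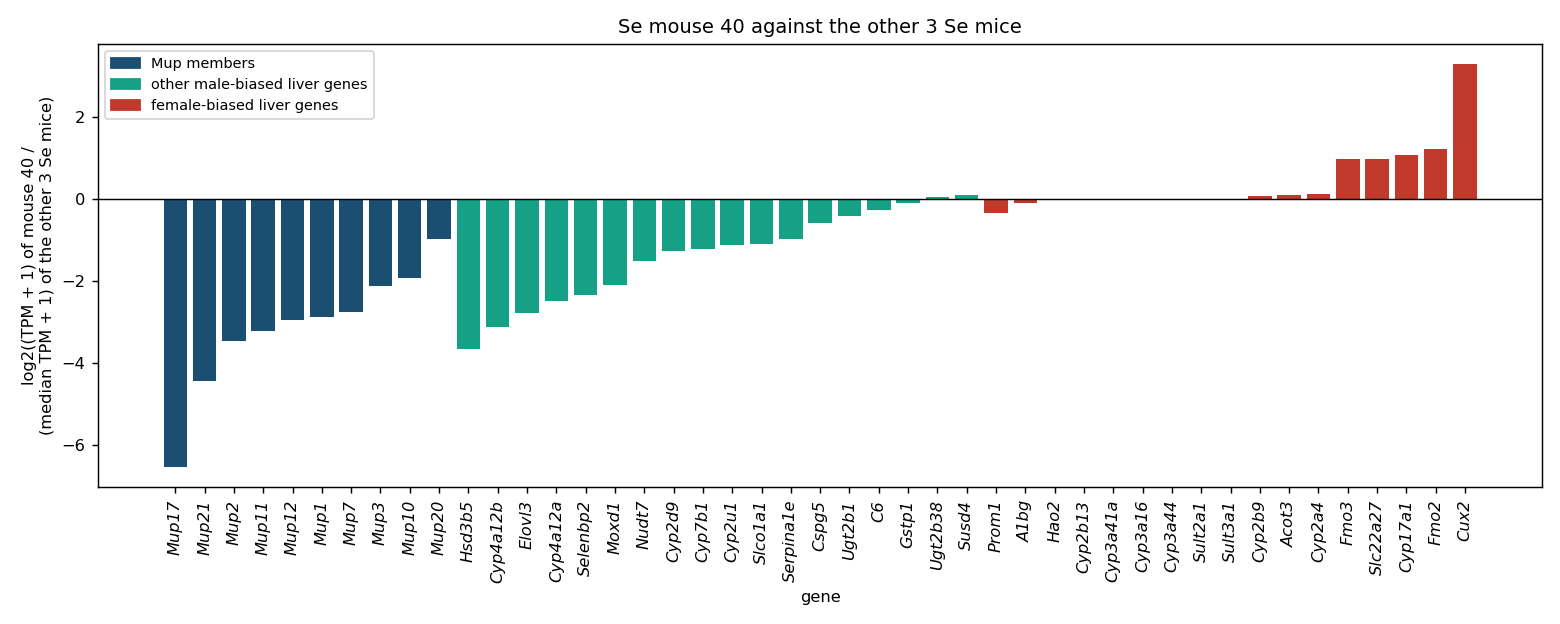
Bars of the log2 ratio of Se mouse 40 to the median of the other 3 Se mice, on TPM + 1 (vertical axis), for the 10 Mup members, 18 other male-biased and 17 female-biased liver genes (horizontal axis). All 10 Mup bars are below 0, from -0.98 for Mup20 to -6.53 for Mup17, while the tallest bar above 0 is that of Cux2 at 3.28.

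Cd injection was compared with control to ask which Mup genes move with Cd. With all 16 libraries in the limma model, 0 of the 10 members passed an adjusted p of 0.05, against 30.8% of all genes tested, and 0 members had an unadjusted p under 0.05, where 42.5% of all genes did. Of the 10 fold changes, 8 were positive and 2 negative, with a median of 0.62 on the log2 scale beside -0.17 for all genes. Signs of paralogs that share reads are not separate observations, here or in the comparisons below. Among the best resolved genes the changes were -0.41 for Mup20, 0.10 for Mup3 and 0.62 for Mup21. After quantile normalization the median of all genes became -0.01, and 0.05 after median centring. Of all genes, 685 were called higher and 2934 lower in Cd, and after quantile normalization 1710 and 2276. After median centring the balance reversed, with 2260 called higher and 1804 lower. Across the 10 members the Cd and control mice did not overlap in 2, Mup10 and Mup20, against 34.2% of all genes. Without Se mouse 40, which is in neither group but adds to the spread estimated across all groups, 2 members were called higher in Cd, Mup10 and Mup21, against 33% of all genes. The same pair was called when the model held only control and Cd mice, where 30.3% of all genes were.

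Mup10 was 1324, 1467, 1787 and 1918 TPM in control mice 27 to 30 and 2468, 2249, 3817 and 2442 TPM in Cd mice 1, 2, 5 and 6. Every Cd liver was above every control liver, and mouse 5 was well above the other Cd mice. The estimate on the log2 scale was 0.74 with a standard error of 0.35 (limma adjusted p = 0.122), and with mouse 40 left out the standard error was 0.18 and the limma adjusted p was 0.00617. Without Cd mouse 5 the change was 0.57 (limma adjusted p = 0.298, with 22.8% of all genes called). With both mice left out, a choice made after the values were seen, Mup10 was called at 0.57 (limma adjusted p = 0.0172, with 26.1% of all genes called). With weights for each library it was also 0.57 without being called (limma adjusted p = 0.0569). Under the other scalings of the libraries the change of Mup10 was 0.58 after quantile normalization, 0.96 after centring on the median and 0.74 relative to a total without Mup and the 20 highest other genes.

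Mup21 was 536, 1008, 513 and 769 TPM in control mice 27 to 30 and 1201, 1024, 944 and 1036 TPM in Cd mice 1, 2, 5 and 6. The groups overlapped through control mouse 28, which was above Cd mouse 5. The estimate on the log2 scale was 0.62 with a standard error of 0.71 (limma adjusted p = 0.531), and without mouse 40 the standard error was 0.19 (limma adjusted p = 0.0241). Mup21 is among the best resolved members, since nearly all of its sequence windows are its own. Most of the sequence of Mup10 is shared with paralogs.

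Mup20, the darcin gene, was 30831, 34463, 28200 and 34374 TPM in control mice and 24267, 27463, 18073 and 27690 TPM in Cd mice 1, 2, 5 and 6. Every Cd liver was below every control liver, with Cd mouse 5 the lowest of all. The log2 fold change was -0.41 (95% interval -0.87 to 0.05, limma adjusted p = 0.165), without mouse 40 the limma adjusted p was 0.0577, and without Cd mouse 5 the change was -0.27 (limma adjusted p = 0.409). It was -0.19 after centring on the median. Mup20 gave 42.2% to 61.1% of the members' sum in control and 28.5% to 43.7% in Cd mice. Mup3 was 12982, 20088, 17200 and 20110 TPM in control and 19592, 18722, 16170 and 19797 TPM in Cd mice, with a log2 fold change of 0.10 (95% interval -0.66 to 0.85, limma adjusted p = 0.862) that was -0.16 after quantile normalization.

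Mup1 and the 5 other members close to it besides Mup10 varied widely among the controls, while in the Cd group Mup11 (2345 to 3190 TPM) and Mup2 varied less. Mup7 was 2525, 11390, 5643 and 15788 TPM in controls and 8301, 9651, 19237 and 14732 TPM in Cd mice. Controls 27 and 29 were the 2 lowest controls in 9 of the 10 members, Mup10 being the exception, so these controls were low across genes and not in single ones. Fold changes in Cd were 0.79 for Mup7, 0.70 for Mup12, 0.65 for Mup1, 0.61 for Mup2, 0.32 for Mup17 and -0.38 for Mup11 on the log2 scale, with limma adjusted p of 0.377 or more. Single mice moved these values: without Cd mouse 5 the change was 0.39 for Mup12 and 0.39 for Mup1, and leaving out each mouse in turn gave 0.29 to 1.17 for Mup7, 0.32 to 0.98 for Mup12, 0.27 to 0.996 for Mup1, 0.32 to 0.86 for Mup2, -0.17 to 0.84 for Mup17 and -0.70 to -0.11 for Mup11. The coefficient of variation among controls was 66.9% for Mup7 and 88.3% for Mup17, against 9.47% for Mup20, 17.0% for Mup10 and 19.1% for Mup3.

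**Figure D4:**
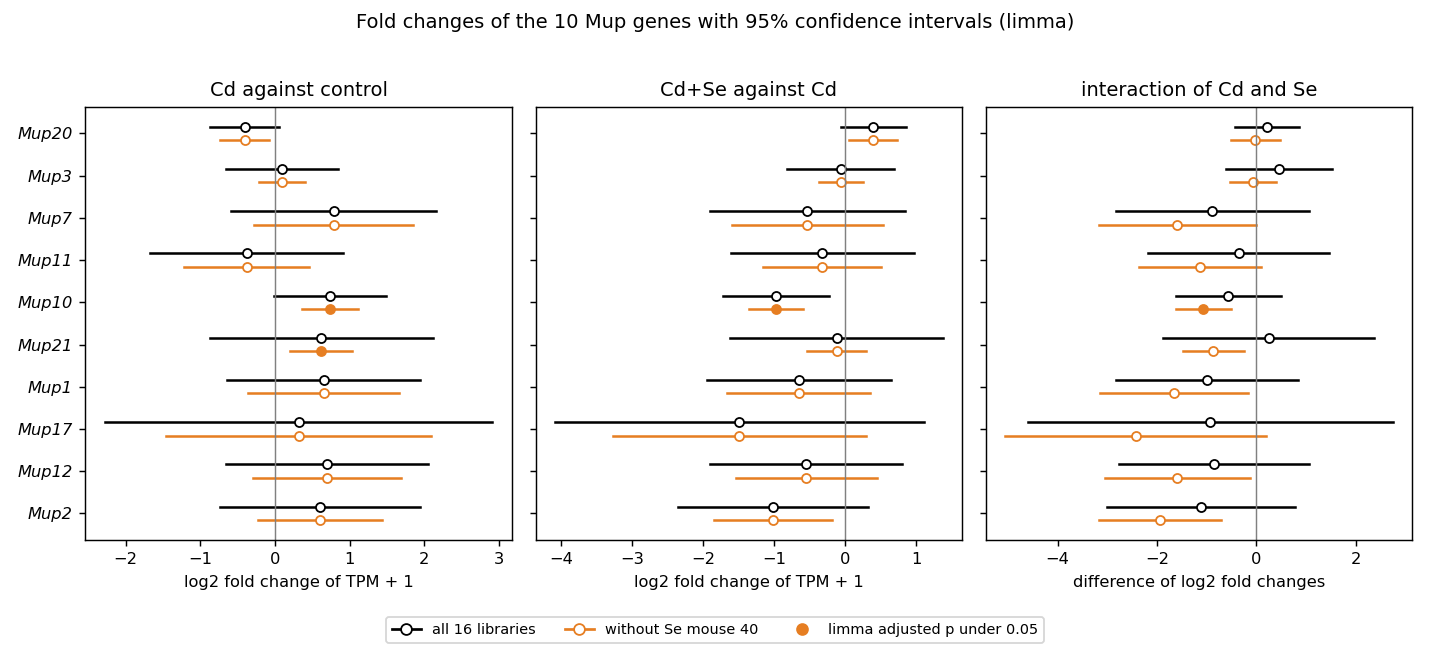
Log2 fold changes of TPM + 1 with 95% confidence intervals (horizontal axes) for the 10 Mup genes (vertical axis) in Cd against control, Cd+Se against Cd and the interaction of Cd and Se, from limma with all 16 libraries (black) and without Se mouse 40 (orange). Filled points have an adjusted p under 0.05: Mup10 in all 3 panels and Mup21 in the first, each only in the fit without mouse 40.

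Cd+Se mice were compared with Cd mice to ask what SeMet changed in injected animals. With all libraries 0 of the 10 members passed the threshold, against 15.9% of all genes, while a single member had an unadjusted limma p below 0.05, where 33.1% of all genes did. Negative fold changes numbered 9, with a median of -0.54 beside 0.17 for all genes, and the groups did not overlap in 2 members, Mup10 and Mup2, against 19.2% of all genes. These changes share the Cd mice with the comparison above, so opposite signs in both are not independent. Mup10 was 1281, 1182, 1783 and 1284 TPM in Cd+Se mice 13 to 16, each below the lowest Cd mouse at 2249 TPM. It differed by -0.97 on the log2 scale with a standard error of 0.35 (limma adjusted p = 0.0690). Without mouse 40 it was called (limma adjusted p = 0.00579, the only 1 of 10 members where 18.4% of all genes were called), as it was with weights for each library (-0.90, limma adjusted p = 0.0244, where 18.2% of all genes were called). When the model held only Cd and Cd+Se mice, which also leaves out mouse 40, Mup10 was not called (limma adjusted p = 0.0556). Without Cd mouse 5 it was -0.80 (limma adjusted p = 0.202, with 6.52% of all genes called), and without both mice -0.80 (limma adjusted p = 0.0113, with 10.4% called).

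Mup2 was 144, 220, 214 and 216 TPM in Cd mice and 127, 135, 42.2 and 118 TPM in Cd+Se mice, a log2 difference of -1.01 with a standard error of 0.63 (limma adjusted p = 0.278, and 0.0817 without mouse 40). Mup20 was 28368, 34273, 25487 and 40364 TPM in Cd+Se mice 13 to 16, of which mouse 15 lay within the range of the Cd mice and the other 3 above it. Its difference was 0.40 with a standard error of 0.22 (limma adjusted p = 0.212, and 0.0880 without mouse 40), or 0.26 without Cd mouse 5, the only positive one among the 10. It gave 44.9% to 56.7% of the members' sum in Cd+Se mice, above all Cd mice. Cd+Se mouse 15 was the lowest of its group in 8 of the 10 members but the highest in Mup3 and Mup10. Mup17 was 27.2 TPM in that mouse and 247 to 286 TPM in the other 3.

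Cd+Se mice were set against control to ask what remained with both treatments. With all libraries 0 of 10 members were called against 0.484% of all genes, and 0 had an unadjusted p under 0.05, where 10.9% of all genes did. The median change was -0.01 on the log2 scale, and Mup10 (-0.24), Mup20 (-0.01) and Mup3 (0.03) differed by less than the spread within groups. Without mouse 40, 0 of 10 were called against 0.561% of all genes, and in 0 of 10 did the groups separate, against 8.86% of genes. The intervals were wide for genes with large spread: for Mup17 the change of -1.17 had a 95% interval from -3.77 to 1.43.

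Se against control asked whether the diet alone moved these genes, and here the outcome turned on mouse 40. With all libraries 0 members were called and so were 0% of all genes (454 of 11766 were below 0.05 in limma before adjustment, and 0 of the members were). The groups overlapped in all 10 members, where 3.09% of all genes did not, and 6 of the 10 fold changes were positive. Without mouse 40 all 10 fold changes were positive, with a median of 0.87 beside -0.05 for all genes, and the limma adjusted p was 1 for each, as 0% of all genes were called. Mouse 40 was the lowest Se mouse in all 10, so leaving it out raised each change by construction. Signs of paralogs that share reads are also not 10 separate observations. The 3 remaining Se mice lay above the 4 controls in 2 members, Mup20 and Mup21, against 8.21% of all genes whose groups did not overlap in either direction. Mup20 was 43135, 40631 and 44233 TPM in Se mice 39, 41 and 44 and 21930 TPM in mouse 40, which gave a log2 change against control of 0.42 without and 0.18 with mouse 40. Mup21 was 1225, 1137 and 1067 TPM in mice 39, 41 and 44, and its change was 0.75 without and -0.37 with mouse 40.

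Cd+Se against Se gave the effect of Cd in mice on the SeMet diet. With all libraries 0 of 10 members were called against 0.714% of all genes, and 0 were separated between groups against 5.64%. Without mouse 40 also 0 were called, against 0.654%, while the groups did not overlap in 4 members, Mup2, Mup11, Mup17 and Mup20, all lower in Cd+Se, against 11.4% of all genes. Leaving out mouse 40, the lowest Se mouse in every member, lowered each of these changes by construction. Mup11 was 2918, 3228, 1154 and 2039 TPM in Cd+Se mice and 9664, 6703 and 3704 TPM in Se mice 39, 41 and 44. Its log2 change was -1.52 without mouse 40 (limma adjusted p = 0.125) and -0.74 with it (limma adjusted p = 0.738). Mup20 changed by -0.43 without (limma adjusted p = 0.309) and -0.19 with mouse 40.

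The interaction, the effect of Cd on the SeMet diet minus its effect without, was called in 0 of 10 members against 1.04% of all genes. Without mouse 40 it was called in Mup10 alone, against 2.96% of all genes, at -1.07 on the log2 scale with a standard error of 0.26 (limma adjusted p = 0.0438). It was -0.57 with all libraries (limma adjusted p = 0.529). Without Cd mouse 5 it was -0.40 (limma adjusted p = 0.723, with 0.705% of genes called), and without both mice -0.90 (limma adjusted p = 0.0489, with 2.58% of genes called). All 10 estimates were negative once mouse 40 was left out, with a median of -1.36 beside 0.22 for all genes, and 3 of 10 were positive when it was kept. Leaving it out lowered each estimate by construction, since it was the lowest Se mouse in every member.

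The table lists 12 further genes named Mup and a number. Mup4 and Mup5, which are known from glands of the head, were at most 0.33 and 0.59 TPM, and the other 10 had means from 4.93 TPM (Mup6) to 19812.5 TPM (Mup22). They are Mup6, Mup8, Mup9, Mup13, Mup14, Mup15, Mup16, Mup18, Mup19 and Mup22. With them the family took 3.84% to 16.7% of a library. None of the 100-base windows of Mup19 and Mup22 was theirs alone, so their levels rest wholly on how shared reads were divided. With all libraries 0 of the 10 tested were called in any of the 6 comparisons. Without mouse 40 the calls numbered 1 in Cd against control, 3 in Cd+Se against Cd and 1 in the interaction, where 33%, 18.4% and 2.96% of all genes were called. Mup18 was called lower in Cd than control (-0.58, limma adjusted p = 0.0228), and Mup8 (-1.50), Mup16 (-0.81) and Mup9 (-0.60) were called lower in Cd+Se than in Cd, with limma adjusted p of 0.00836, 0.0251 and 0.0143. Mup8 was also called in the interaction (-1.96, limma adjusted p = 0.0394). Rows of Mup pseudogenes summed to at most 69.6 TPM.

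**Figure D5:**
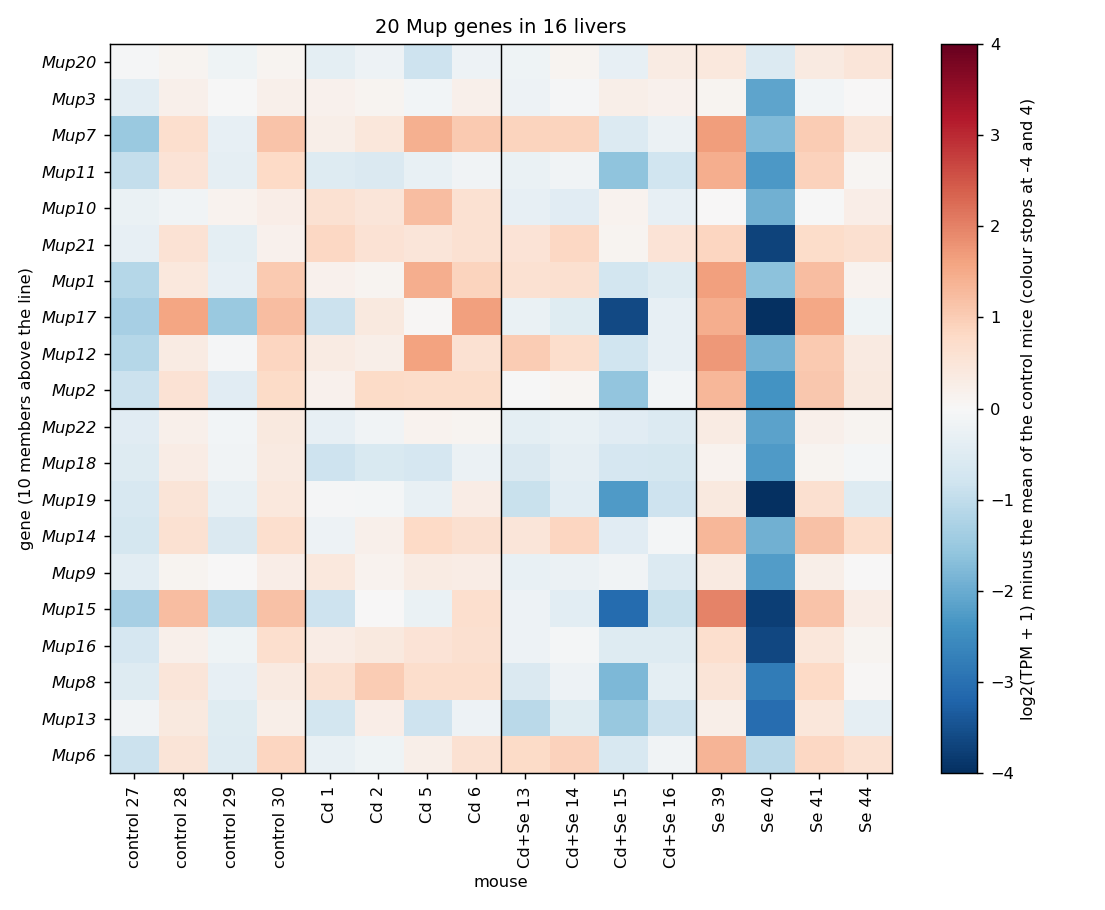
Colour map of log2(TPM + 1) minus the mean of the control mice for 20 Mup genes averaging 1 TPM or more (rows, the 10 members above the line) in 16 mice (columns). The column of Se mouse 40 is blue in all 20 rows, control 27 is a paler blue throughout, and the row of Mup10 is red in the 4 Cd mice.

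Growth hormone signalling and the transcription factors of the hepatocyte were listed as 22 regulators, and all 22 were tested. In Cd against control 10 of them were called lower and 0 higher, with a median change of -0.37 beside -0.17 for all genes, where 24.9% of all genes were called lower and 5.82% higher. The counts of this list are for TPM without further scaling, and the balance of all genes turned on the scaling. Without Cd mouse 5, 8 were called lower and 0 higher, against 17% and 5.8% of all genes, and Onecut1 and Stat5a were no longer called. Zhx2, a homeobox factor known to act on Mup genes, was 5.07 ± 0.427 TPM (SD, n = 4) in control and 2.44 ± 0.721 TPM in Cd mice (-0.84, limma adjusted p = 0.000953). Hnf4a, a nuclear receptor that maintains hepatocyte identity, ranged from 138 to 165 TPM in control mice and from 70.1 to 94.7 TPM after Cd, a difference of -0.81 (limma adjusted p = 0.00174). Thrb, the thyroid hormone receptor of liver, changed by -0.82 (limma adjusted p = 0.00140), Rxra, its partner, by -1.05 (limma adjusted p = 5.01e-05) and Onecut1, a liver transcription factor, by -2.40 (limma adjusted p = 0.0270). Ghr was 242 ± 6.17 TPM in control and 206 ± 25.8 TPM in Cd mice (-0.24, limma adjusted p = 0.138), and Stat5b was 8.59 ± 0.432 TPM and 8.35 ± 1.81 TPM (-0.05, limma adjusted p = 0.811). In Cd+Se against Cd, 8 of the 22 were called higher and 0 lower, where 13.6% of all genes were called higher, among them Zhx2 (0.70, limma adjusted p = 0.00957) and Hnf4a (0.58, limma adjusted p = 0.0239). Without Cd mouse 5 the count was 3, Zhx2 included, against 5.02% of all genes, and Hnf4a was 0.48 (limma adjusted p = 0.0781).

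Among other male-biased genes of the liver, 2 of 18 were called lower in Cd than in control and 0 higher, with a median of -0.19, beside the 24.9% of all genes called lower and the all-gene median of -0.17. They were Ugt2b38, a glucuronosyltransferase (-1.38, limma adjusted p = 0.00418), and C6, a complement component (-0.84, limma adjusted p = 0.00542), and both were also called without Cd mouse 5. Without mouse 40, where 33% of all genes were called in either direction, 4 were called lower and 1 higher, the latter being Elovl3 (1.16, limma adjusted p = 0.0200). Of 17 female-biased genes 3 were tested, and Acot3 (-1.61) and Fmo2 (-1.11) were called lower in Cd, Fmo2 not without Cd mouse 5 (limma adjusted p = 0.0589). Of 10 other lipocalins 9 were tested. Lcn2, an acute-phase lipocalin that binds bacterial siderophores, was called higher (3.21, limma adjusted p = 0.0112), with 1 control mouse at 55.1 TPM just above the lowest Cd mouse at 54.8 TPM, and Apom, an apolipoprotein, was called lower (-0.92, limma adjusted p = 0.0222). Both were called without Cd mouse 5 too, Apom at -0.53. Of 19 other abundant secreted proteins 5 were called higher and 2 lower, against 5.82% and 24.9% of all genes, and without Cd mouse 5 these counts were 4 and 1. The 4 called genes with the largest changes were haptoglobin (Hp, 0.82), fibrinogen alpha (Fga, -0.69), transferrin (Trf, 0.69) and Apoa2 (0.56), of which Hp was not called without Cd mouse 5 (limma adjusted p = 0.0650). Albumin (Alb) differed by -0.68 and was not called (limma adjusted p = 0.0560).

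Of the cell marker sums, only that of neutrophils set every injected mouse apart from every other mouse. The 5 neutrophil markers summed to 31.4 to 39.6 TPM in Cd and 42.6 to 73.6 TPM in Cd+Se mice, against 6.21 to 16.5 TPM in control and 5.53 to 9.60 TPM in Se mice. The 7 Kupffer cell markers summed to 57.7 to 88.6 TPM in Cd, 53.1 to 109 TPM in Cd+Se, 150 to 181 TPM in control and 97.3 to 195 TPM in Se mice. The 7 hepatocyte markers summed to 36450 to 63002 TPM in Cd and 56047 to 77342 TPM in control mice. In Cd+Se mice they summed to 46270 to 67085 TPM and in Se mice to 55697.5 to 110510 TPM. Alb, 1 of the 7, was 86650 TPM in Se mouse 40 and 22135 to 61475 TPM in the other 15 mice. The hepatocyte sum therefore largely follows Alb. The 5 sinusoidal endothelial markers summed to 35.5 to 51.7 TPM in Cd, 38.3 to 75.6 TPM in Cd+Se, 55.7 to 67.7 TPM in control and 40.96 to 65.6 TPM in Se mice. The 5 stellate cell markers summed to 84.25 to 139 TPM in Cd and 106 to 149 TPM in control mice. They summed to 68.2 to 191 TPM in Cd+Se and 78.0 to 148 TPM in Se mice. For cholangiocyte and lymphocyte markers, injected and other mice overlapped too. The part of these marker levels in the Mup levels was not tested.

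The genes outside the family whose log2 level was most like the summed Mup level over the 16 mice were Ces3a, a carboxylesterase (Pearson r = 0.83), Hsd3b5 (0.83), the organic anion transporter gene Slc22a28 (0.82), the sulfotransferase Sult2a8 (0.79), Hamp, the gene of hepcidin (0.72), and Alas2, a heme synthesis enzyme (0.72). After subtracting group means the highest were Ces3a (0.91), Gm13773 (0.91), Slc22a28 (0.90), Sult2a8 (0.89), Hsd3b5 (0.88) and Cyp4v3 (0.88). They were picked as the highest among all genes tested, and mouse 40 weighs heavily in them. Without this mouse the r of the 8 genes over 15 mice was 0.27 to 0.56.

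RefSeq (GRCm38.p6) held promoters, from 250 bases before to 50 after the start, for 7 of the 10 members: Mup2, Mup3, Mup7, Mup10, Mup11, Mup17 and Mup21. The STAT5-type sequence TTCNNNGAA, which reads the same on both strands, was in 0 of these 7 windows and in 8.30% of 32851 promoters. The TATA-like sequence TATATAA, searched on both strands after the first, was in 6 of 7, Mup7 being the exception, and in 3.24% of all promoters. These are matches of letters in the windows only.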

How the data were processed

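Liver libraries of 16 mice were analysed, 4 per group, with groups taken from the sample titles and treatment labels. The authors deposited 1 table of TPM values, which have the same total in every library. The submitters' processing notes name fastp, HISAT2 and StringTie without versions, and the build GRCh38, a human build, although the identifiers are those of mouse genes, so no coordinate was taken from that build. The handling of reads that map to several genes is not given in the sources used here. Each title names a pair of runs, and the table has 1 column per mouse.

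Log2(TPM + 1) of the 11766 genes averaging 1 TPM or more was fitted with limma 3.58.1 in R 4.3.3, with 1 mean per group, an intensity trend and Benjamini-Hochberg adjustment over all genes tested, at a threshold of 0.05. With the added 1, differences of low genes come out smaller than they are. Confidence intervals are 95% and from the same fit. The steps were tested on simulated data. P-values measure the spread between mice of this series. Precision rests on 4 mice per group.

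The members and the gene lists were chosen with earlier results of these data known. Genes were named by a rule: all 10 members, other Mup genes averaging 1 TPM or more, up to 4 genes of each list with the largest called change in Cd against control, Stat5b, Ghr, Hnf4a and Zhx2 in any case, the 6 genes most like the summed level with and without group means subtracted, and genes for checks of sex, label and cell type. Genes named for Se mouse 40, and Elovl3, were chosen after their values were seen.

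Sequences and positions are from GENCODE M21 (GRCm38) and RefSeq promoters (GRCm38.p6). Alternatives were a pseudocount of 0.1, no filter, a mean of at least 5 TPM, quantile normalization, centring on the median, a total without Mup genes and the 20 highest others, only the groups compared, no trend, weights per library, protein-coding genes only, a log2 fold change of at least 1, and leaving out each mouse. Leaving out Cd mouse 5 and Se mouse 40 together, and the gene lists without Cd mouse 5, were added after seeing the data. Alb was named after its values were seen.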

Additional observations from a re-analysis of the deposited data

Results flagged for a closer look

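In 9 of the 72 groups of 4 mice looked at (the 10 members, their sum, 4 regulators, Cux2, Mt1 and Mt2 in 4 groups each), 1 mouse stood apart by Dixon's ratio, which sets the distance between an extreme mouse and its neighbour against the whole spread of the 4, at the 95% level. Cux2 was chosen after its values were seen, so its ratios are descriptions only, and without it 7 of 68 groups had such a mouse, where chance gives about 1 in 20. Se mouse 40 was apart for Mup20 (0.839, at 21930 TPM) and Mup21 (0.866, at 51.2 TPM), and for Cux2 its ratio was 0.973, at 11.4 TPM. Cd mouse 5 was apart for Mup10 (0.860, at 3817 TPM). Cd+Se mouse 15 was apart for Mup10 (0.831, at 1783 TPM, above the others) and Mup17 (0.847, at 27.2 TPM, below them). Cd mouse 1 was apart for Mup2 (0.914, at 144 TPM, below the others) with a ratio of 0.917 for Cux2, at 0.29 TPM, and control mouse 28 for Zhx2 (0.933, at 5.71 TPM).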

How the results depend on the processing

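Members called numbered 2 in Cd against control when only the groups compared were fitted, without Se mouse 40, and without it and Cd mouse 5, 1 in Cd+Se against Cd with weights per library, without Se mouse 40 and without both, and 1 in the interaction without Se mouse 40 and without both. Leaving out each mouse in turn gave 0 to 2, 0 to 1 and 0 to 1, and the other alternatives gave 0 in these comparisons. The summed level in Cd+Se against Cd became -0.18 after centring, -0.14 over all Mup genes with pseudogenes and -0.27 over the members but Mup20, which gave 0.29 in Cd against control. Of 1610 alternative values for single genes, 1519 kept direction and side of the threshold, 11 passed it newly and 80 changed sign. The cause was not tested. No paired analysis was possible because the mouse numbers are not shared between groups.

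Signs changed as follows (log2). After quantile normalization Mup3 was -0.16 in Cd against control and 0.22 in Cd+Se against Cd, Mup20 0.039 in Cd+Se against control, -0.11 in Se against control and 0.15 in Cd+Se against Se, and Mup11 -0.083 in Se against control. In Cd+Se against control, centring gave 0.015 for Mup20 and 0.023 for Mup1, the total without Mup genes -0.051 for Mup3, and weights per library 0.12 for Mup20 and 0.049 for Mup1. Weights also gave 0.33 for Mup21 and 0.41 for Mup17 in Se against control, -0.22 for Mup10 in Cd+Se against Se and -0.38 for Mup21 in the interaction. Without both mice, Se against control gave 0.75 (Mup21), 0.0095 (Mup3), 0.094 (Mup10) and 0.94 (Mup17), Cd+Se against Se -0.24 (Mup21) and -0.33 (Mup10), and the interaction -0.92 (Mup21), -0.14 (Mup3) and -0.16 (Mup20).

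Leaving out each mouse turned the sign in these ranges. Cd against control had -0.044 to 0.17 (Mup3) and -0.17 to 0.84 (Mup17), and Cd+Se against Cd -0.23 to 0.017 (Mup21) and -0.13 to 0.022 (Mup3). Cd+Se against control had -0.11 to 0.12 (Mup3), -0.24 to 0.64 (Mup7), -0.13 to 0.093 (Mup20), -0.38 to 0.34 (Mup1) and -0.23 to 0.47 (Mup12). Se against control had -0.77 to 0.75 (Mup21), -0.73 to 0.0095 (Mup3), -0.44 to 0.81 (Mup11), -0.14 to 1.06 (Mup7), -0.64 to 0.094 (Mup10), -0.088 to 1.0 (Mup1), -0.31 to 0.93 (Mup2), -0.17 to 1.05 (Mup12) and -1.27 to 0.94 (Mup17). Cd+Se against Se had -0.24 to 1.27 (Mup21), -0.80 to 0.34 (Mup7), -0.33 to 0.40 (Mup10), -1.01 to 0.086 (Mup1), -0.90 to 0.32 (Mup12) and -2.11 to 0.21 (Mup17). The interaction had -0.87 to 0.65 (Mup21), -0.071 to 0.67 (Mup3), -1.14 to 0.11 (Mup11) and -0.024 to 0.32 (Mup20). The summed level had -0.14 to 0.09 in Cd against control, -0.03 to 0.09 in Cd+Se against Cd, -0.12 to 0.11 in Cd+Se against control, -0.16 to 0.43 in Se against control and -0.43 to 0.16 in Cd+Se against Se. The depth of the libraries is unknown.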
